A study of Mus musculus with 56 samples.

Results

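Hemoglobin was read by 16 spots of the MUSV29K microarray, out of 7625 spots with a gene name and 9984 in all. They were chosen by name, as every spot whose gene symbol begins with Hba or Hbb, and each was kept as a clone of its own. Hba-a1, an adult α chain, has 9 of these spots, Hbb-b1, an adult β chain, has 3, and Hbb-y, a β-like chain of the embryo, has 4. A spot is named here by its symbol and its number on the microarray.

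MUSV29K is a nylon membrane of mouse cDNA clones, hybridized with radioactively labelled cDNA made from lung RNA of 1 mouse. Female C57Bl/6J mice, 7 weeks old, received oleic acid (OA), a fatty acid that injures the lung, through the tail vein, or physiological serum as the control. The 27 OA mice (50 microarrays) were taken 1 hour (4 mice), 1.5 hours (6 mice), 3 hours (7 mice), 4 hours (4 mice), 18 hours (3 mice) or 24 hours (3 mice) after injection. The 8 serum mice (9 microarrays) were taken after 1 hour (2 mice), 1.5 hours (1 mouse), 3 hours (2 mice), 18 hours (2 mice) or 24 hours (1 mouse). These numbers of serum mice rest on the counts in the paper, as the labels do not name the mice. Its text gives 1 or 2 serum mice for each time point. It does not say which serum mouse had 2 microarrays, and this was taken to be the mouse at 1.5 hours. The paper describes serum mice at every time point, but 4 hours has no serum microarray here. The stages early (1 and 1.5 hours), intermediate (3 and 4 hours) and late (18 and 24 hours) held 10, 11 and 6 OA mice. By the study's methods the mice were killed by bleeding from the eye vein and the smallest lung was used for RNA. The p values measure the spread between these mice. The surfactant protein Sftpd, a marker of lung epithelium, was bright, with a mean log2 signal of 13.52 over the 27 OA mice.

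Hemoglobin carries oxygen in red cells as a tetramer of α and β chains, each holding a heme group. Young red cells that have just left the bone marrow still carry globin mRNA, so blood in a lung sample brings α and β chain mRNA with it. The embryonic chain Hbb-y is made in the yolk sac and is switched off before birth in favour of the adult β chains.

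The adult genes lie in tandem copies. Hba-a1 lies on chromosome 11 (GRCm38.p6, chr11:32283672-32284486) with its copy Hba-a2 at chr11:32296492-32297310. Hbb-bs (chr7:103826523-103827928) and Hbb-bt (chr7:103812524-103813923) are the adult β genes of the C57BL/6J reference, and Hbb-y (chr7:103851754-103853207) lies in the same cluster. Hbb-b1 has no entry in the promoter table used. A cDNA spot hybridizes with near-identical transcripts, so signal from Hba-a1 and Hba-a2, or from the adult β copies, cannot be told apart here. The upstream regions of Hba-a1 and Hba-a2 share 1 unbroken stretch of 247 of 250 bases. The 110 bases before the start of 4 of these genes are shown, since they set the adult chains beside the embryonic one. They are read 5′ to 3′ on the strand of the gene, from RefSeq on GRCm38.p6, and capitals mark matches on either strand to the CACCC motif, to the CCAAT motif, to the TATAA motif and to its variant CATAA.
Hba-a1 (chr11:32283562-32283671, plus strand): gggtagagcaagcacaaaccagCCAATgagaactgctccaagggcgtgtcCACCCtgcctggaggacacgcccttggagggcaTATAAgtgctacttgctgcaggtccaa
Hbb-bs (chr7:103827929-103828038, minus strand): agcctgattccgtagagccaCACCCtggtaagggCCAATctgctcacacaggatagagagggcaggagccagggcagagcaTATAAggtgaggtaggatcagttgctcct
Hbb-bt (chr7:103813924-103814033, minus strand): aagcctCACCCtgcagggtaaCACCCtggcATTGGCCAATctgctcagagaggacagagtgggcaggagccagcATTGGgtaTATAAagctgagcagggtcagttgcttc
Hbb-y (chr7:103853208-103853317, minus strand): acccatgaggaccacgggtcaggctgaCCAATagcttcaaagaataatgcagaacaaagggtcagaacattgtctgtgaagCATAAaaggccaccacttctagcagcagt
CACCC was found in 29.6% of all 32851 RefSeq promoter windows of that length, CCAAT in 20.2%, TATAA in 10.9% and CATAA in 11.7%. The 3 adult windows each held the CACCC motif, the CCAAT motif and the TATAA motif. The Hbb-y window held the CCAAT motif with the variant CATAA, and none of the other motifs in these letters.

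The first result concerns the range of the measurement. The image signal, in linear units, had a shared upper value of 21815, called the ceiling here. It was reached on 44 of 50 OA microarrays and 8 of 9 serum microarrays, by up to 11 spots of an OA microarray and up to 16 of a serum one. A signal above it was found for 3 spots of 1 microarray, none of them a globin spot. A signal of at least 95% of the ceiling is called near it. On an OA microarray a median of 7 of the 12 adult globin spots (range 0 to 11) lay near the ceiling, beside a median of 3 spots of other named genes (range 0 to 12). On a serum microarray a median of 11 of the 12 (range 0 to 12) did so. Among other genes, Cbr2 spot 5488, a carbonyl reductase, was alone in being near the ceiling on at least 50% of the OA microarrays, with 34 of 50.

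By their OA microarrays alone, the adult globin spots fell into a group of 9 near the ceiling and a group of 3 below it. The 9 spots were near the ceiling on 16 to 48 of the 50 OA microarrays, the lowest being Hba-a1 spot 2008 and the highest Hba-a1 spot 9808. Hba-a1 spot 9808 had a lowest signal of 19914, a median of 21815 and a highest of 21815 over the OA microarrays. Hba-a1 spots 2472 and 4200 and Hbb-b1 spot 3864 were near the ceiling on 1, 0 and 1 of the 50. Their medians were 15924.5, 16342.5 and 15275.5, with ranges of 12188 to 21744, 12506 to 19451 and 10992 to 21787. The 4 Hbb-y spots were dim, with medians between 452.5 and 664.

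**Figure D1:**
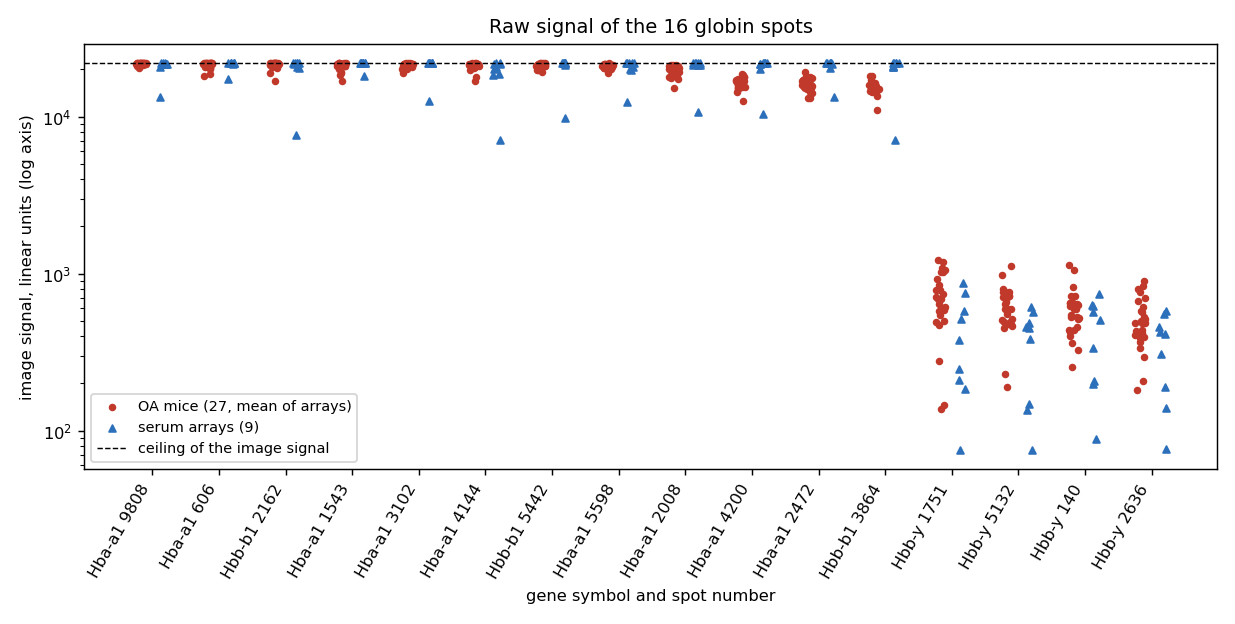
Image signal in linear units on a log axis for the 16 globin spots, with a red point for each of the 27 OA mice (mean of the microarrays of the mouse) and a blue triangle for each of the 9 serum microarrays; the dashed line is the ceiling of 21815. The 12 adult spots sit at or close under it, 3 of them lower in OA mice, and the 4 Hbb-y spots lie far below.

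The adult spots moved little between microarrays even where the microarrays differed in brightness. The median signal of a microarray ranged 6.1-fold over the OA microarrays, from 108 to 659. Over the same microarrays Hba-a1 spot 9808 ranged 1.1-fold and Hba-a1 spot 2472 ranged 1.78-fold. The dim Hbb-y spot 140 ranged 7.82-fold, from 230 to 1799. The adult spots thus followed the brightness of the microarray less than a dim spot of the same family did. The authors' quality mark, whose rule is not stated, was 1 on 0 to 16 of 50 OA microarrays for the 9 spots near the ceiling and on 39 to 46 for the 3 below it.

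The first comparison asked whether hemoglobin signal changed over the 6 time points after OA. No globin spot passed an adjusted p of 0.05 in limma's moderated F test over 6 time points, where 2.01% of all 7625 clones did (153 clones). None passed over the 3 stages, where 6.16% did (470 clones). Among the 16 globin spots 0 had an unadjusted p under 0.05 in either fit, beside 1208 and 1851 of all clones. For the 9 spots near the ceiling such a test can show little, since their values could not rise above it.

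The values of the 3 spots below the ceiling carry what the time course can show for the adult chains. Hba-a1 spot 2472 had log2 signals of 13.94, 13.96, 14.02 and 14.17 in the 4 mice at 1 hour. At 1.5 hours its lowest, median and highest values were 13.78, 13.92 and 14.24, and at 3 hours 13.84, 13.96 and 14.28. It read 13.53, 13.77, 14.04 and 14.05 at 4 hours. The ranges of these times overlapped. It then read 13.91, 14.09 and 14.26 at 18 hours, and 13.46, 13.64 and 13.86 at 24 hours, so that the 24 hours mice lay below the 18 hours mice without overlap. The F test over time gave this spot an unadjusted p of 0.0536 and an adjusted p of 0.324.

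The other 2 spots below the ceiling also had their lowest mean at 24 hours. Hbb-b1 spot 3864 averaged 13.62 ± 0.12 (SD, n = 3) at 24 hours, against 13.98 ± 0.16 (n = 3) at 18 hours and 13.96 ± 0.18 (n = 7) at 3 hours, with an adjusted p of 0.528 by limma's F test. Hba-a1 spot 4200 averaged 13.78 ± 0.08 (n = 3) at 24 hours and 14.06 ± 0.16 (n = 3) at 18 hours, with an adjusted p of 0.534 by the same test. The 3 mice at 24 hours are the same in each case, and the order did not pass the test for any of the 3 spots. The order was not seen in the raw signal of Hba-a1 spot 2472, which was 15272, 16268 and 16888 in the 24 hours mice and 13120, 15757 and 15859 in the 18 hours mice, before normalization between microarrays. For the other spots it was turned without overlap: Hbb-b1 spot 3864 had 15991 to 16358 at 24 hours and 10992 to 15384 at 18 hours, and Hba-a1 spot 4200 had 16429 to 17940 and 12506 to 15444. The lower 24 hours values are thus seen on the normalized scale and not in the raw signal.

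Between stages the differences were small beside their errors. Late minus early was -0.14 ± 0.11 (SE) for Hba-a1 spot 2472, -0.12 ± 0.11 for Hbb-b1 spot 3864 and -0.09 ± 0.09 for Hba-a1 spot 4200 on the log2 scale. Their adjusted p values in limma were 0.484, 0.543 and 0.599. All 6 late mice carry the number 1 after L in their names, and no early mouse does. The meaning of that number is not stated in the labels, and late minus early cannot be told apart from it. With that number as a block, where intermediate mice alone link early and late ones, 0 globin spots passed either test.

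**Figure D2:**
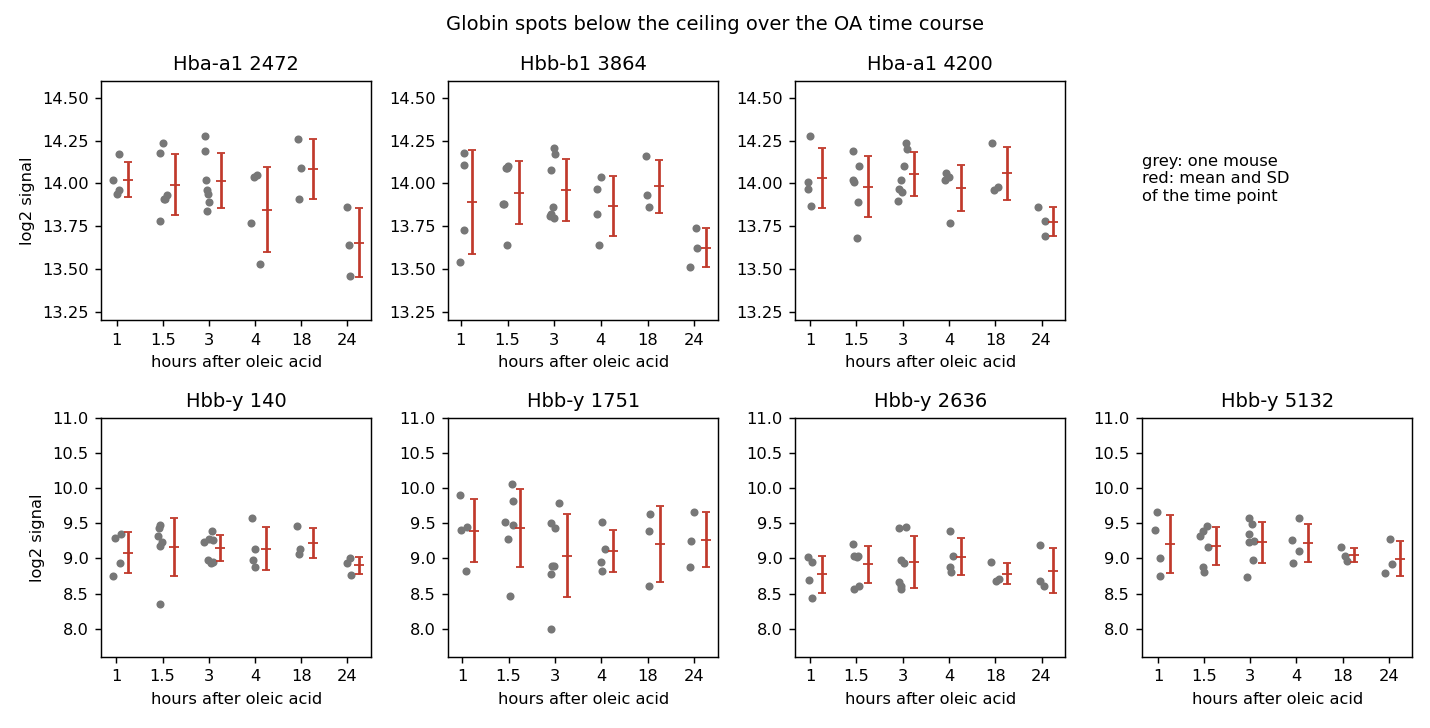
Log2 signal of the deposited table by hours after OA injection for the 3 adult spots below the ceiling (upper row) and the 4 Hbb-y spots (lower row); each grey point is a mouse and the red bars are the mean and SD of the time point. The 24 hours mice are lowest on average for each adult spot shown and for Hbb-y spots 140 (8.90) and 5132 (8.99).

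The embryonic chain Hbb-y was near the background of the membrane. Its 4 spots averaged 8.89 to 9.23 on the log2 scale over the 27 mice, beside 9.08 for the 95th percentile of the empty spots over the same microarrays. Hbb-y spot 1751 was above that percentile of its own microarray on 32 of 50 OA microarrays, and spot 2636 on 17. The adult spots were above it on 50 of 50. None of the Hbb-y spots changed over time by the F test. Spot 1751 had the widest spread, from 8.00 to 10.06 over the 27 mice, and an unadjusted p of 0.211 over the stages.

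Agreement between clones was measured as the correlation over the 27 OA mice, for 120 pairs of the 16 spots. The 3 adult spots below the ceiling were positively correlated across both chains. Hba-a1 spot 2472 and Hbb-b1 spot 3864 had a Pearson r of 0.76 (adjusted p = 0.0006 by permutation) and a Spearman rho of 0.70 (p = 0.0001, adjusted p = 0.003). Hbb-b1 spot 3864 and Hba-a1 spot 4200 had an r of 0.68 (adjusted p = 0.003 by permutation) and a rho of 0.72 (adjusted p = 0.0024). Hba-a1 spots 2472 and 4200, which carry the same chain, had an r of 0.59 (adjusted p = 0.0206 by permutation) and a rho of 0.51 (adjusted p = 0.0777), the least close of the 3 pairs. Without the 2 mice farthest from the median of the first spot, r was 0.69, 0.69 and 0.49 in the same order. After the mean of each time point was removed, r was 0.69, 0.58 and 0.43, and the last pair no longer passed (adjusted p = 0.181 by permutation). Within the 3 sets of 9 mice that share a number after L, r was 0.95, 0.60 and 0.79 for the first pair, 0.93, 0.77 and 0.37 for the second, and 0.88, 0.57 and 0.24 for the third, so that each pair was positive in every set, though of these 9 values the 0.95 alone passed an adjusted p of 0.05 by permutation.

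The 9 spots near the ceiling did not order the mice alike. Their 36 pairs had r between -0.29 and 0.72 with a median of 0.04, and 1 pair passed an adjusted p of 0.05 by permutation (Hba-a1 spots 606 and 9808). Its Spearman rho did not pass. With microarrays centred on their medians instead, the same 36 pairs had r from 0.97 to 1.00, as a signal held at 1 value on every microarray then carries only the median of the microarray. Of the 27 pairs between the spots near the ceiling and those below it, 3 passed. With median centring those 27 pairs had r from 0.96 to 0.99, and the 3 pairs of spots below the ceiling had r from 0.95 to 0.97. That scaling thus did not set the spots below the ceiling apart. The part of microarray brightness in their agreement was not tested.

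Among the Hbb-y spots, numbers 140, 2636 and 5132 went together over all mice and number 1751 stood apart. Spots 2636 and 5132 had an r of 0.81 and a rho of 0.84 (permutation p = 1e-05 for both, the smallest the 100000 resamples can give; adjusted p = 0.0006 for r). Within the 3 sets their r was 0.50, 0.84 and 0.88. Spot 140 had an r of 0.63 with each of them, but 0.17 and 0.10 within the first set, and spot 1751 had r values of -0.06, 0.12 and 0.27 with the 3 others. These 3 spots lie in the same column of the membrane, in rows 12, 64 and 116, at steps of 52 rows. The Hba-a1 spots 606, 3102 and 5598 lie in those same rows in another column. Of 4979 pairs of named spots 52 rows apart, 11 share a symbol, and 4 of these are globin pairs. Whether they hold the same clone is not stated. Over 48 pairs of an adult and an Hbb-y spot the median r was 0.13, and 3 passed, all with Hbb-y spot 140. The highest was r = 0.74 with Hbb-b1 spot 3864 over the 27 mice, and 0.88, 0.78 and 0.39 within the sets.

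**Figure D3:**
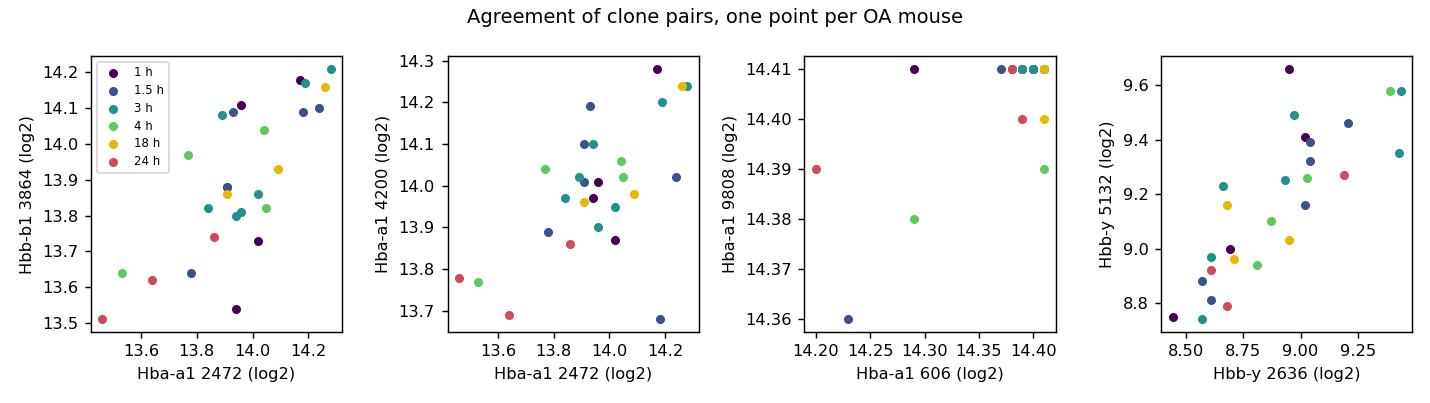
Log2 signal of pairs of spots, with a point for each of the 27 OA mice, coloured by hours after injection. The first 2 panels show adult spots below the ceiling (r = 0.76 and 0.59), the third shows 2 spots near the ceiling (r = 0.72), most of them in the upper right corner, and the fourth shows 2 Hbb-y spots (r = 0.81).

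The spread between mice was described as the SD within time points, as a possible sign of blood content. For the 9 spots near the ceiling it was 0.0115 to 0.086 on the log2 scale, against a median of 0.219 over all clones, and Hba-a1 spot 9808 had the smallest spread of all 7625. For the spots below the ceiling it was 0.18 (Hba-a1 spot 2472), 0.197 (Hbb-b1 spot 3864) and 0.149 (Hba-a1 spot 4200), at the 20th, 28th and 11th percentile of the 200 clones nearest in mean signal. With median centring in place of quantile normalization the SD of the same 3 spots was 0.416, 0.426 and 0.415, so their spread depends on the scaling. The 23 mice with 2 microarrays gave the SD between microarrays of 1 mouse, which was 0.269, 0.169 and 0.174 for these 3 spots. For a mean of 2 microarrays this alone gives 0.19, 0.119 and 0.123. The spread of Hba-a1 spot 2472 between mice was thus no larger than that of its repeat microarrays, and that of Hbb-b1 spot 3864 was the most in excess of it. The Hbb-y spots spread by 0.286 to 0.506 between mice, and by 0.239 to 0.688 between microarrays of a mouse.

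Serum mice were compared with OA mice on values normalized over all 60 microarrays, where each group of a treatment and time point was fitted apart. By the image signal the 3 adult spots below the ceiling were lower in OA mice than in serum mice. They were set apart by their OA microarrays alone. On serum microarrays Hba-a1 spots 2472 and 4200 and Hbb-b1 spot 3864 were near the ceiling on 7, 7 and 6 of 9. A lower OA value was thus partly fixed by their choice, and the tests of these 3 spots are given as description. By the signal of a fitted spot the β spot alone was lower (Hbb-b1 spot 3864, -0.41, adjusted p = 0.022 in limma), and the α spots turned to 0.39 (Hba-a1 spot 2472, adjusted p = 0.736) and 1.41 (Hba-a1 spot 4200, adjusted p = 0.061). The direction for the α spots thus rests on how the spots were quantified, and the values that follow are of the image signal. On serum microarrays Hba-a1 spot 2472 had a raw signal at the ceiling on 6 of 9, of 20343 and 21637 on another 2, and of 13322 on the last. That last microarray, of a mouse at 3 hours, was dim throughout, with a median of 53 and a highest signal of 18022, where the other serum microarrays had medians from 128 to 336. After normalization Hba-a1 spot 2472 read 14.29 to 14.41 in the 8 serum mice and 13.37 to 14.24 in the 27 OA mice, without overlap. Hba-a1 spot 4200 read 13.99 to 14.40 in serum mice and 13.60 to 14.24 in OA mice, and 7 of the 8 serum mice lay above all OA mice. Hbb-b1 spot 3864 read 13.02 to 14.37 in serum mice and 13.43 to 14.17 in OA mice, again with 7 of 8 above all OA mice, and the exception was the dim microarray.

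The mean difference over the 5 shared time points, OA minus serum, was -0.45 ± 0.08 (SE) for Hba-a1 spot 2472 (adjusted p = 2e-05 in limma), -0.36 ± 0.07 for Hba-a1 spot 4200 (adjusted p = 0.000107 in limma) and -0.37 ± 0.12 for Hbb-b1 spot 3864 (adjusted p = 0.00745 in limma). These are 0.732, 0.777 and 0.775 of the serum level as measured. The serum values were held by the ceiling on 6, 4 and 3 of 9 microarrays, so the serum level there is known as a lower limit. The 3 spots are 3 of 16 globin spots called lower in OA, where 27.3% of all clones were called lower and 34.3% higher, so a call alone sets no clone apart in this comparison. Without the dim microarray the differences were -0.45, -0.40 and -0.50. Without the other serum mouse at 3 hours, that of Hbb-b1 spot 3864 shrank to -0.23 (adjusted p = 0.0293 in limma). By time point, Hba-a1 spot 2472 differed by -0.32 to -0.37 at 1 to 18 hours and by -0.83 at 24 hours. The 24 hours arm has 1 serum mouse, whose spread the fit takes from the other groups, and the test that the 5 differences are equal gave an adjusted p of 0.936 in limma. That test passed for none of the 16 globin spots, 3 of which had an unadjusted p under 0.05, and for 8 of all clones.

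**Figure D4:**
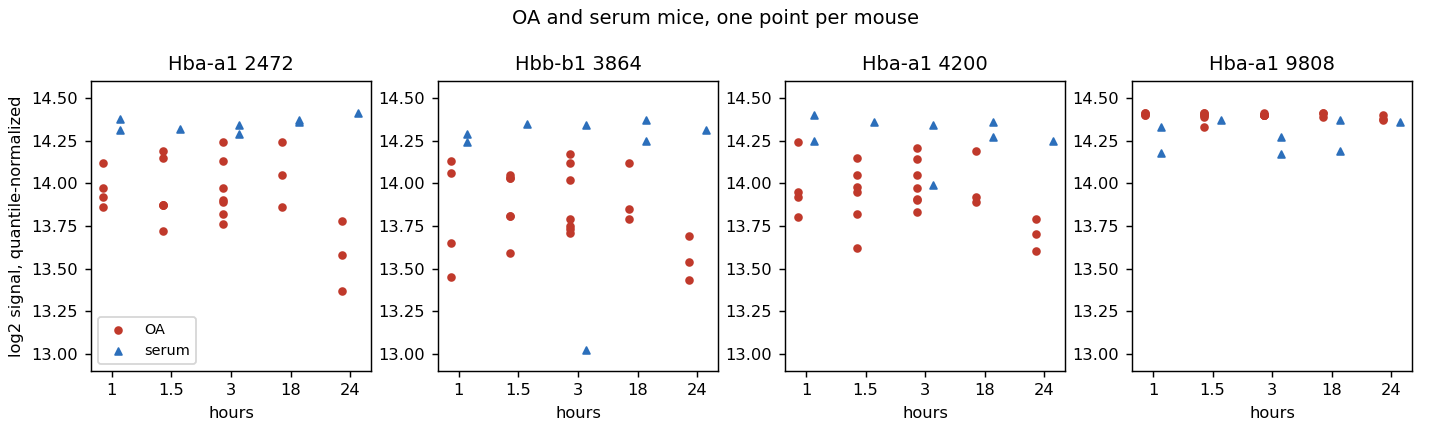
Log2 signal, quantile-normalized over 60 microarrays, by hours after injection, with a red point for each OA mouse and a blue triangle for each serum mouse, for the 3 adult spots below the ceiling and for Hba-a1 spot 9808. In the first panel all serum mice lie above all OA mice, in the next 2 panels the dim 3 hours microarray is the exception, and in the last panel serum mice read 14.17 to 14.37 and OA mice 14.33 to 14.41.

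Another 3 globin spots passed the test on the side of OA. Hba-a1 spot 4144 read 14.29 to 14.41 in OA mice and 13.03 to 14.36 in serum mice (adjusted p = 0.00193 in limma), its lowest serum value being the dim microarray. Hba-a1 spot 9808 read 14.33 to 14.41 and 14.17 to 14.37 (adjusted p = 0.03 in limma), and it was near the ceiling on 48 of 50 OA and 8 of 9 serum microarrays. Spot 4144 was near the ceiling on 38 of 50 OA microarrays but on 4 of 9 serum microarrays. It differed by 0.28 ± 0.08 (SE), and 7 of the 8 serum mice lay below all OA mice. Spot 9808 differed by 0.10 ± 0.04, with 5 of the 8 below. The OA levels of both spots and the serum levels of spot 9808 are held by the ceiling, so no size of a difference is read. No direction is read either, as it turned with median centring for both spots. The Hbb-y spot 5132 differed by 0.29 ± 0.12 (adjusted p = 0.0363 in limma), while Hbb-y spots 140, 1751 and 2636 differed by 0.02, 0.25 and 0.06 with adjusted p values of 0.877, 0.273 and 0.658. The call of spot 9808 was lost without any of 3 serum mice (1 mouse each at 1, 3 and 18 hours), with adjusted p values from 0.0511 to 0.0815. The call of spot 5132 was lost without any of 6 mice, the OA mice P4L2, P6L1 and P11L1 and 3 serum mice (1, 3 and 18 hours), with adjusted p values from 0.0505 to 0.111.

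The direction for the spots near the ceiling turned with the scaling. When each microarray was centred on its median in place of quantile normalization, all 12 adult spots were called lower in OA, by -0.59 to -1.15, including spots 4144 (-0.59) and 9808 (-0.69). Hba-a1 spots 2472 and 4200 and Hbb-b1 spot 3864 differed by -1.15, -1.07 and -1.11. The OA microarrays had a median signal of 321 and the serum microarrays 197, and for a spot held at the ceiling on both, this difference in medians is the whole of the difference. That scaling moved the median of all clones from 0.05 to -0.06, and the share of higher among all called clones from 55.7% to 43.6%. The differences changed with the scaling and, for the α spots, with how the spots were quantified. A lower globin level in OA lung is thus not established here. In bulk lung, fewer red cells and less globin mRNA in each red cell could not be told apart in any case. The part of blood left in the vessels was not tested.

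Other genes of red cells were compared in the same fit. The membrane list, made mainly of genes for the red cell membrane and skeleton, also held Trim10 and the soluble enzymes Bpgm and Car1. Of its 15 clones, 11 were higher in OA than in serum and 0 lower. Their median difference was 0.45, beside 0.05 over all clones. Car1 was among the 11, and neither Trim10 nor a Bpgm spot was. Over all clones 34.3% were called higher and 27.3% lower. Of the 15, 4 were above the empty spots' 95th percentile on average: Slc4a1 spots 2851 and 6449, Slc2a1 spot 6089 and Bpgm spot 4203. As Bpgm spot 4203 was not called, most of the 11 called clones were dimmer than that percentile. The anion exchanger Slc4a1, the main membrane protein of the red cell, was higher by 0.45 ± 0.12 (spot 2851, adjusted p = 0.00193 in limma). Alas2, which makes the first step of heme synthesis in red cell precursors, averaged 9.22, close to the empty spots, and differed from serum by -0.23 ± 0.12 (adjusted p = 0.1 in limma). Of the 15 clones for heme synthesis and iron uptake, 2 were lower and 4 higher, below the share over all clones in each direction. Among the higher were the iron store subunit Ftl1 (spot 4482, 0.26 ± 0.10) and the mitochondrial iron carrier Slc25a37 (0.44 ± 0.06), which was dimmer than the empty spots' 95th percentile. Another Ftl1 spot, number 738, differed by -1.23 ± 0.55 and did not pass. With median centring the membrane list had 9 higher and 1 lower, and the heme list turned to 1 higher and 7 lower. Over 19 clones of red cell enzymes, 5 were lower and 4 higher, with a median of -0.14, and again neither count exceeded the share over all clones.

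Across the OA time course, none of the 15 clones of the membrane list, 15 heme clones or 19 enzyme clones passed the F test over time points or stages. Among 22 clones of erythroid regulators, 2 passed over the stages, near the share of 6.16% over all clones. Bcl2l1, which protects red cell precursors from death, averaged 8.84, 9.20 and 8.95 in the early, intermediate and late stages (spot 5390, adjusted p = 0.00606 in limma), and its spot 3827 did not pass. Mafk, a partner of the erythroid factor Nfe2, averaged 9.39, 9.65 and 9.30 (adjusted p = 0.0328 in limma). The erythroid factors Gata1, Klf1 and Tal1 averaged 7.75, 7.28 and 7.61, below the empty spots' 95th percentile of 9.08. Of the 7 clones that handle free hemoglobin and heme, hemopexin (Hpxn, a plasma heme carrier) passed over the stages, with 8.06, 8.36 and 10.01 (adjusted p = 6.91e-05 in limma). Albumin (Alb1) also passed over the time points (adjusted p = 0.0473 in limma). The heme oxygenase Hmox1 averaged 8.23, 8.19 and 8.28 and did not pass.

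Markers of other blood cells were among the clones that passed over the stages, where 6.16% of all clones did. Of 9 neutrophil clones 1 passed, S100a8, with 12.00, 11.92 and 10.49 over the stages (adjusted p = 0.0243 in limma). Its partner S100a9 averaged 12.08, 12.48 and 11.28 (adjusted p = 0.0706), and the granule protein Lcn2 averaged 9.15, 9.90 and 9.93 (adjusted p = 0.199). Of 28 lymphocyte clones, 3 of which were above the empty spots' 95th percentile on average, 7 passed over the stages. These included Cd79b, part of the B cell receptor, with 8.82, 8.23 and 8.74 (spot 6132, adjusted p = 0.0226 in limma). Of 5 platelet clones 2 passed, in unlike directions. The platelet chemokine Cxcl7 averaged 9.54, 9.81 and 9.10 (adjusted p = 0.0386 in limma), and the tetraspanin Cd9, which other cells also carry, averaged 10.82, 10.72 and 11.21 (adjusted p = 0.0149 in limma). The platelet integrin Itga2b averaged 10.42, 10.13 and 10.12 (adjusted p = 0.227). Their part in the globin values was not tested. As all late mice and no early mice carry the number 1 after L, late minus early differences of the clones above cannot be told apart from that number.

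The clones whose signal was most like that of the adult globin spots were found over the 27 OA mice, with the mean of each time point removed, by Pearson's r with the mean of the 12 Hba-a1 and Hbb-b1 spots. As quantile normalization ties the clones of a microarray together, r is given as a description. The 6 highest were Fabp2 (0.89), Otub2 (0.81), Kif16b (0.79), Wt1 (0.76), Ripk5 (0.75) and Cops2 (0.75), and the 3 lowest were Akr1a4 (-0.82), Ran (-0.73) and Rnf7 (-0.73). Fabp2, a fatty acid binding protein known from the intestine, had a mean log2 signal of 13.64 on its spot 2422. Against the mean of the 3 spots below the ceiling, also with the time means removed, red cell clones had r of both signs. It was 0.52 for Rhag, 0.40 for Alas2, 0.15 and -0.06 for the Slc4a1 spots 2851 and 6449, -0.00 for Car1, -0.17 for Spna1, -0.19 for Rhd and -0.29 for Prdx2. It was -0.49 for S100a8 and -0.25 for Sftpd. Rhag, Car1, Spna1 and Rhd had mean log2 signals of 6.85, 7.40, 6.71 and 7.78, below the empty spots' 95th percentile of 9.08.

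Some of these clones lie beside a globin spot on the membrane. The Kif16b spot touches Hba-a1 spot 2472, the Otub2 spot is 2 spots from Hbb-b1 spot 2162, and Fabp2 is 4 spots from Hba-a1 spot 2472, while Wt1, Cops2 and Ripk5 are 7, 9 and 27 spots from the nearest adult globin spot. The 60 named spots that touch an adult globin spot had a median log2 signal of 10.50. It was 9.04 for the 143 spots at a distance of 2 and 8.45 for the 6631 more than 5 spots away. The 12 empty spots that touch one had a median of 8.99, against 6.05 for 1446 empty spots more than 5 away. Spots beside the adult globin spots were thus brighter, also where no clone was printed. The Hbb-y spots are 13 to 26 spots from the nearest adult globin spot.

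**Figure D5:**
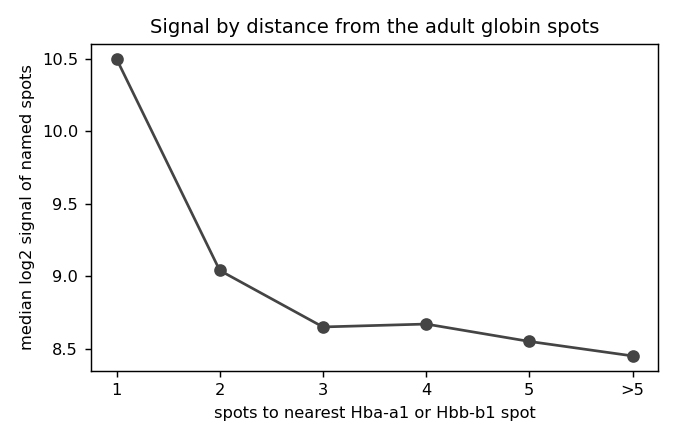
Median log2 signal of named spots, averaged over the OA microarrays, by their distance in spots from the nearest Hba-a1 or Hbb-b1 spot. It falls from 10.50 at 1 spot to 9.04 at 2 spots and 8.45 beyond 5 spots.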

How the data were processed

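Expression was measured on 60 MUSV29K microarrays, and 50 of 27 OA mice and 9 of 8 serum mice were used. For 1 OA microarray the mouse could not be read from the labels, and it was not used. A microarray of P7L3 with conflicting labels was taken as 3 hours. The authors deposited, for each microarray, spot intensity on a linear scale from Bzscan2, as an image sum and as a model of the spot, with the spot diameter (250 units for the constant one) and a quality mark as values of another kind. The paper states a correction for local background and neighbouring spots, and whether these intensities hold it is not known. The authors also deposited a table of log2 values, which they had quantile-normalized. Its OA columns keep the order of the image signal at constant diameter (Spearman 1 on all 51). Its serum columns, 1 per time point, were not used.

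The time course used that table, without serum subtraction. OA and serum were compared on image intensity, floored at 1, taken to log2 and quantile-normalized over 60 microarrays. Microarrays of a mouse were averaged. Clones were fitted in R 4.3.3 with limma 3.58.1 (lmFit, eBayes, moderated F), with Benjamini-Hochberg adjustment at 5% over 7625 named clones. Labels were read with jsonlite 2.0.0, and correlations and figures used Python 3.11.15 with numpy 2.4.6, scipy 1.17.1, pandas 2.3.3 and matplotlib 3.10.9. Permutation tests were two-sided with 100000 resamples. The number of mice, of microarrays per mouse and the ceiling limit the precision. Whether mice of a group were kept or handled apart is not stated. The fits were checked on simulated data with 200 changed clones.

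The genes named are all Hba and Hbb clones, called clones and defining markers of the lists of red cell, heme, erythroid, scavenging and other blood cell genes, and the 6 most and 3 least like clones. Lists and members were chosen with earlier results of these data known. Empty and control spots stayed in the normalization and out of the tests. Alternatives tried were quantile normalization over all microarrays for the time course, median centring, fitted signals, a filter on dim clones, a floor of 16, the number after L in the mouse names as a block, mouse as a random block, the microarrays with doubtful labels, trend and robust eBayes, serum subtraction, and each mouse left out.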

Additional observations from a re-analysis of the deposited data

Results flagged for a closer look

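Within a time point of 4 to 7 OA mice, the highest or lowest mouse was set against the others for each spot. Of 64 such groups, 13 held a mouse that stood apart by Dixon's test at the 5% level. That level cannot be set beside this count, as the spots share the same mice and 9 of them are held by the ceiling. In 13 of 13 the mouse that stood apart was the lowest. Of the 13, 11 concern spots near the ceiling, where no mouse can stand out upward. At 1 hour these were Hba-a1 spot 606 in P2L3 (14.29, the others 14.39 to 14.41), spot 1543 in P4L2 (14.28, the others 14.39 to 14.40) and spot 3102 in P3L2 (14.39, the others at 14.40). At 1.5 hours they were Hba-a1 spot 606 in P8L2 (14.23, the others 14.37 to 14.41), spot 9808 in P8L2 (14.36, the others at 14.41) and spot 1543 in P5L3 (14.22, the others 14.38 to 14.41). At 3 hours they were Hba-a1 spot 1543 in P15L2 (14.33, the others 14.38 to 14.41) and Hbb-b1 spot 5442 in P7L3 (14.31, the others 14.38 to 14.41). At 4 hours they were Hba-a1 spot 606 in P13L3 (14.29, the others at 14.41), Hbb-b1 spot 2162 in P11L2 (14.12, the others 14.40 to 14.41) and Hba-a1 spot 3102 in P4L1 (14.32, the others 14.40 to 14.41).

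The 2 others, away from the ceiling were Hba-a1 spot 4200 in P13L3 at 4 hours (13.78, the others 14.02 to 14.06) and Hbb-y spot 140 in P8L2 at 1.5 hours (8.35, the others 9.18 to 9.48). The same mouse P8L2 was the lowest for Hba-a1 spots 606 and 9808, an α chain near the ceiling.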

How the results depend on the processing

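Of 643 values recomputed under an alternative, 585 kept their direction and side of the threshold or, for counts, stayed within 1.5 times or, for an SD, within its own standard error. For the time course, 0 globin spots stayed the result under every alternative but 2. With the fitted signal at constant diameter 1 spot passed over the stages (Hba-a1 spot 2008). With serum means subtracted by time point, 10 passed over the time points and 8 over the stages, and 4264 and 3297 of all clones did. By construction all OA mice of a time point share the subtracted mean. As 4 hours has no serum microarray, no serum mean of its own could be subtracted from its OA mice. These counts thus do not compare every time point with its own serum mice. The globin spots called lower in OA numbered 12 with median centring and 1 when serum microarrays alone were quantified by a fitted spot of calculated diameter (the mixed reading). Those called higher numbered 0 with median centring, 1 with the fitted signal and 13 with the mixed reading, and 1 to 4 when a mouse was left out.

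Directions turned as follows. With median centring the differences were -0.11 (Hbb-y spot 140), -0.03 (Hbb-y spot 2636), -0.59 (Hba-a1 spot 4144) and -0.69 (Hba-a1 spot 9808). With the fitted signal they were -0.11 (Hbb-y spot 140), 0.39 (Hba-a1 spot 2472) and 1.41 (Hba-a1 spot 4200). With the mixed reading they were 1.59 (Hba-a1 spot 2472) and 1.79 (Hba-a1 spot 4200), so that of the 3 spots below the ceiling Hbb-b1 spot 3864 alone kept its direction (-0.41 and -0.27). The cause was not tested. Leaving out a mouse moved Hbb-y spot 140 between -0.01 and 0.05, and -0.00 without P12L1. With the time means removed, Hba-a1 spots 2472 and 4200 (r = 0.43) no longer passed. Within the sets of 9 mice that share a number after L, adjusted over 120 pairs, r missed the threshold for Hba-a1 spot 2472 with Hbb-b1 spot 3864 in sets 2 and 3 (0.60 and 0.79), for Hba-a1 spots 2472 and 4200 in all 3 (0.88, 0.57 and 0.24) and for Hbb-b1 spot 3864 with Hba-a1 spot 4200 in all 3 (0.93, 0.77 and 0.37). In set 3, Hbb-y spots 140 and 1751 had r = 0.58, and 1751 and 2636 had r = -0.06. No paired analysis was possible because the labels give the groups no shared replicate numbers.

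Calls over all clones (153 over time points, 470 over stages) became 62 and 156 with the fitted signal, 71 and 118 with the number after L as a block, 438 and 773 with mouse as a random block, 100 and 305 among clones above the empty spots, 299 and 846 without P4L3 and 89 and 280 without P7L1.

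The SD between mice of the 3 spots below the ceiling rose to 0.415 to 0.426 with median centring. The tests rest on 8 serum mice, and the ceiling hides any rise of the 9 brightest spots.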
